A study of Mus musculus with 8 samples.

Results

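The genes described here encode the glycosyltransferases that build mucin-type and Lewis glycans, measured in 8 bulk libraries of mouse intestinal organoids. All protein-coding genes were taken whose symbol begins with Fut, B3gnt, B4galt, B3galt, B4galnt, Galnt, Gcnt, St3gal, St6gal, St6galnac, St8sia or C1galt followed by a digit, which gave 77 genes under 76 symbols of the 54532 genes in the count table. The family was chosen on measured values, because Fut7 was higher with RANKL in these same libraries, so Fut7 is described with no test and is left out of the counts of members that rose or fell. The study asked how RANKL, the ligand of the receptor RANK, acts on intestinal epithelium. Of the 8 libraries, 4 came from control organoids and 4 from organoids given RANKL, and neither the labels nor the methods state dose or time for these bulk libraries. Both groups were mouse small intestinal organoids, which are epithelial cultures grown in a gel, in medium with EGF, NOGGIN and R-spondin. The labels do not say whether the replicates were separate cultures, so the p-values measure only the spread between these libraries, which may be technical.

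Mucin-type glycans start when a GalNAc transferase attaches GalNAc to a serine or threonine, after which galactose, GlcNAc, fucose and sialic acid are added by separate enzymes in the Golgi. Fucose on the end of such a chain makes blood group H and Lewis structures, and a chain that carries both sialic acid and an alpha1,3-linked fucose forms sialyl Lewis x, the ligand of selectins on leukocytes. In the intestine these glycans coat the mucus and the apical surface, where microbes bind and digest them.

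Total counts ran from 583663 to 7807298 per library, and the shallowest libraries were control replicate 4 and RANKL replicate 1. One count was worth 0.127 to 1.72 CPM, the unit used throughout for counts scaled to library size with TMM factors. A count of 0 allows up to 3 counts, or 0.382 to 5.16 CPM, for counting error only. Markers of intestinal epithelium were present in every library, with summed CPM of the 6 pan-epithelial markers of 5641 to 6564 in the control and 5686 to 6083 in the RANKL libraries. All 8 tested M cell markers were higher with RANKL (edgeR adjusted p at most 0.05), beside 13.6% of all tested genes. Of them, 5 (Spib, Sox8, Ccl20, Tnfaip2 and Marcksl1) passed the filter on low counts only through the RANKL libraries, where they were high. With no filter their log2 fold changes were 8.51, 5.56, 4.23, 4.67 and 3.66. The 3 that passed on either group alone were also higher. The summed CPM of the M cell list went from 137 to 182 in the control libraries to 2163 to 2499 in the RANKL libraries. Most of the RANKL sum was Spib alone, with 2.28 to 5.37 CPM in the control and 1489 to 1760.1 CPM in the RANKL libraries. Gp2, the receptor that defines mature M cells, was at 0 in all 8. Of 5 stem cell markers 3 fell and 1 rose, beside 12.4% lower and 13.6% higher over all tested genes. The log2 fold changes were -2.22 for Lgr5, -0.90 for Axin2, -0.76 for Smoc2 and 1.10 for Ascl2. Their sum was 1216 to 1629 CPM in control and 1034 to 1235 CPM in RANKL libraries. Most of it was Olfm4, with 1012 to 1364 and 866 to 1093 CPM, which did not pass. Of 8 goblet cell markers Spdef fell (-0.57, edgeR adjusted p = 0.031) and 7 did not pass. Goblet cell markers summed to 2812 to 3473 and 3155 to 3429 CPM. The part of these cell types in the differences below was not tested. In bulk RNA, fewer cells of a type and less RNA per cell cannot be told apart.

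Fut7 encodes the alpha1,3-fucosyltransferase that completes sialyl Lewis x. It lies at chr2:25423267-25426374 on the plus strand of GRCm38. Its level was 0.764, 0, 1.52 and 3.44 CPM in control replicates 1 to 4, and 74.3, 97.7, 93.9 and 81.8 CPM in RANKL replicates 1 to 4. The lowest RANKL library was far above the highest control library. These levels rest on 14 counts in the control libraries together and 517 in the RANKL libraries, and the highest control value, that of replicate 4, comes from 2 counts. The fitted log2 fold change was 6.58 ± 0.28 (SE, n = 4 per group), with a range of 6.20 to 6.96 when each library was left out in turn. The ratio of the group means was 60.7, and the ratio of the pooled counts per pooled total was 104. These values describe the gene that chose the family and carry no test.

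Fut7 is also known from leukocytes, so leukocyte markers were read beside it. The 14 leukocyte markers together gave 5.16 to 11.9 CPM in the control and 4.82 to 16.1 CPM in the RANKL libraries, and none passed the filter on low counts. Cd3e, Cd3g, Cd4 and Cd79a were at 0 in all 8 libraries. The 6 endothelial markers summed to 1.66 to 3.44 CPM in the control and 0 to 1.61 CPM in the RANKL libraries, with Cdh5 and Kdr at 0. The 6 stromal markers summed to 3.44 to 8.6 CPM in the control and 17.9 to 25 CPM in the RANKL libraries. Most of that sum was Pdgfrb, with 2.16 to 5.37 and 17.2 to 23.5 CPM, while Dcn was at 0 in all 8. The part of these cells in the level of Fut7 was not tested.

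The bases before the Fut7 start site are shown because this gene chose the family, and those before Galnt7, the member with the largest fall below, because they hold a match to the NF-kappaB consensus, here in capitals. Both are the 250 bases upstream of a RefSeq start site on GRCm38.p6, written 5′ to 3′ on the strand of the gene, and neither overlaps an annotated exon. The Fut7 window is chr2:25422992-25423241 on the plus strand, and the Galnt7 window is chr8:57653056-57653305 on the minus strand.
Fut7: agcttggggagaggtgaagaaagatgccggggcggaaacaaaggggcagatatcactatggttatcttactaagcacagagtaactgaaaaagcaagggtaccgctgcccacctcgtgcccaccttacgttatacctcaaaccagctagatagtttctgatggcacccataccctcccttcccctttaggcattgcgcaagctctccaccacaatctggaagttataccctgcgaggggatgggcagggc
Galnt7: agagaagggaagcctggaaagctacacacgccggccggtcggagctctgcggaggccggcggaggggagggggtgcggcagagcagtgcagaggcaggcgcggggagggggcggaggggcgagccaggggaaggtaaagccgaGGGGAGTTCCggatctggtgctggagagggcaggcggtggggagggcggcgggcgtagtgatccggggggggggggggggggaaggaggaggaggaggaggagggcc
Of the tested members other than Fut7, 22 had a promoter in the RefSeq table, with 30 upstream windows between them, and 3 motifs, all chosen after the expression values had been seen, were searched on both strands. The NF-kappaB consensus was found in 2 of the 30 windows (6.67%), those of Galnt7 and St3gal6, beside 7.25% of the 32851 upstream windows of all genes. The letters GAGGAAGT, a core bound by SPI-B and PU.1, were found in 0 of the 30 and in 2.44% of all windows. The shorter ETS core AGGAAG, which lies inside that sequence, was found in 8 of the 30 (26.7%) and in 29.5% of all windows. Fut7 itself held the shorter core in the window of a second start site (chr2:25423444-25423693), where all 250 bases lie under annotated Fut7 exons. It held no motif in the window printed above. The match in Galnt7, GGGGAGTTCC, lies 107 to 98 bases before the start site. These matches describe the letters only, and reads from the 3′ end do not show which start site was used.

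Of the 77 members, 33 passed the filter on low counts, which asked for about 5.39 CPM in at least 4 libraries. Of these, 28 would have passed on either group alone, 4 passed only through the RANKL libraries (Fut7, Fut1, St3gal1 and B4galnt2), and St3gal2 passed on neither group alone. Without Fut7, 6 of 32 tested members were higher with RANKL and 6 were lower at an adjusted p of at most 0.05 (edgeR quasi-likelihood test, adjusted over all 9971 tested genes). Of the 28 that passed the filter on either group alone, 5 were higher and 6 lower. Over all tested genes, 25.9% passed this threshold, 13.6% higher and 12.4% lower. The median log2 fold change of the 32 was -0.07, beside 0.00 over all tested genes. The control and RANKL libraries did not overlap in CPM for 12 of the 32, against 24.6% of all tested genes. Because the family was chosen on this contrast, nothing is read from these shares.

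**Figure D1:**
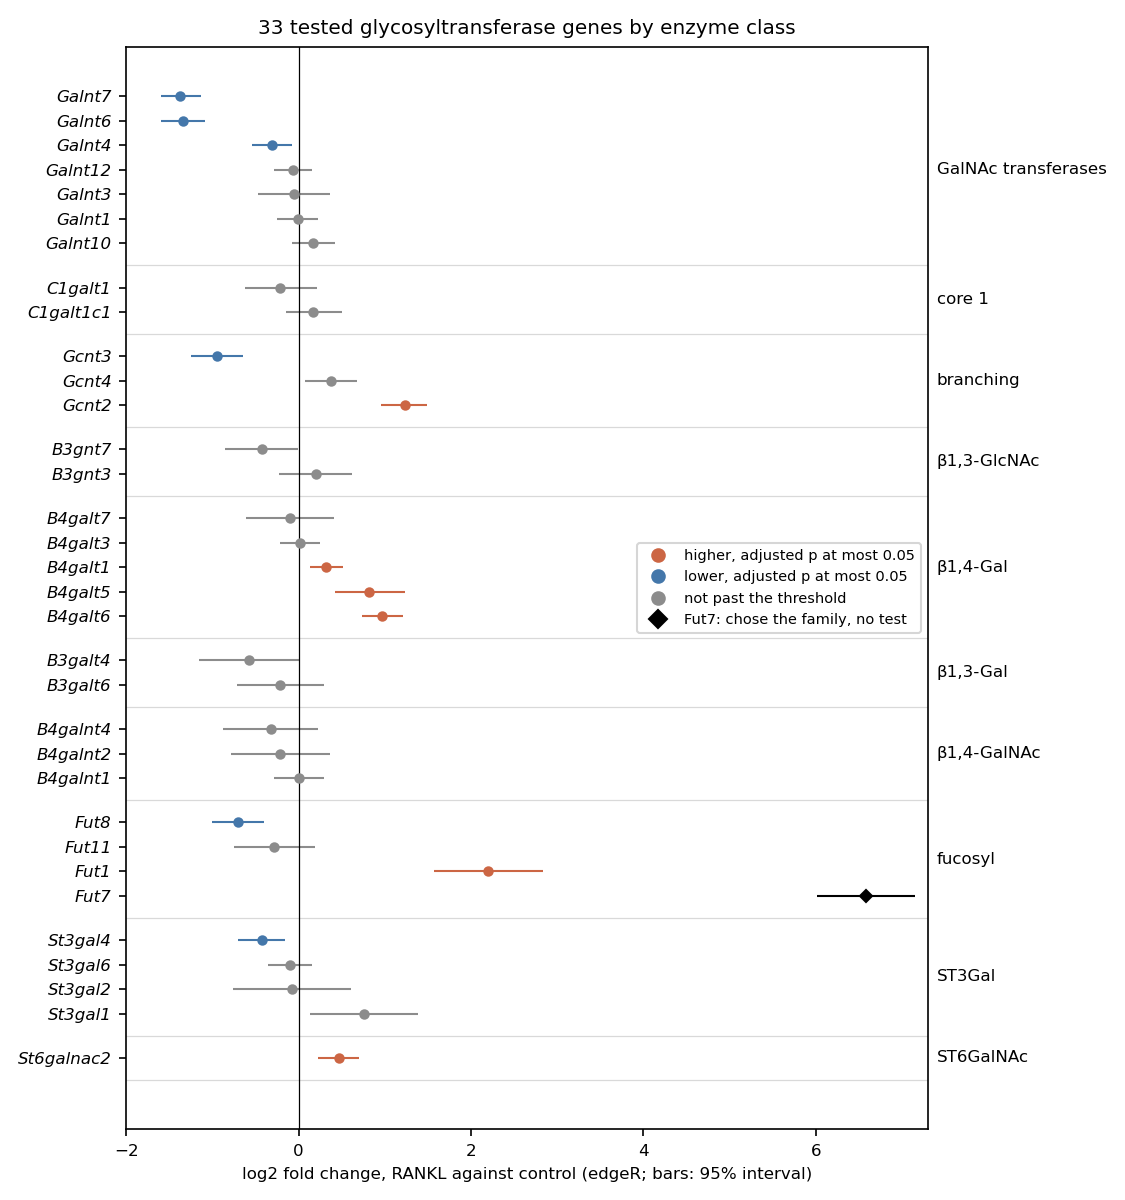
Log2 fold change of RANKL against control (x axis, edgeR estimate with its 95% interval) for the 33 tested glycosyltransferase genes, grouped by enzyme class. Orange and blue points are the 6 members that were higher and the 6 that were lower, grey points are the 20 not past the threshold, and the black diamond is Fut7 at 6.58, which chose the family and has no test.

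Among the GalNAc transferases, which start the chains, 3 of 7 tested members fell and 0 rose. Over all tested genes 12.4% were lower and 13.6% higher. Galnt7 encodes an enzyme that prefers peptides already carrying GalNAc. It is at chr8:57523828-57653032. Its level was 261, 254, 303 and 248 CPM in control replicates 1 to 4 and 87.2, 114, 117 and 91.2 CPM in RANKL replicates 1 to 4. All control libraries were above all RANKL libraries. Its log2 fold change was -1.37 ± 0.11 (SE, edgeR adjusted p = 7.1e-11), the most negative of the members tested.

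Galnt6 (chr15:100691813-100729376) encodes an initiating enzyme of this class. Its level was 207, 179.5, 237 and 162 CPM in the control libraries and 90.4, 77.1, 77.2 and 75.2 CPM in the RANKL libraries. The groups were again apart, and 3 RANKL libraries lay close together with replicate 1 above them. Its log2 fold change was -1.34 ± 0.12 (SE, edgeR adjusted p = 4.6e-10). Both Galnt6 and Galnt7 kept their call under all 16 alternatives.

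Galnt4, which like Galnt7 acts on partly glycosylated peptides, differed less. It had 142, 133, 134 and 126 CPM in the control and 95.3, 119, 119 and 95.6 CPM in the RANKL libraries. The groups did not overlap, but the highest RANKL libraries came near the lowest control library. The log2 fold change was -0.31 ± 0.11 (SE, edgeR adjusted p = 0.038), and the call was lost under 8 of 16 alternatives. Among them were DESeq2 (adjusted p = 0.072), library totals alone, the replicate block and the depth term (edgeR adjusted p = 0.25). Galnt4 also lost its call without control replicate 1 or 2 and without RANKL replicate 1 or 4. Of its exonic bases 8.25% lie under same-strand exons of Poc1b, so some reads could belong to either gene.

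Galnt1, Galnt3, Galnt10 and Galnt12 did not pass the threshold. Their log2 fold changes were -0.01, -0.05, 0.17 and -0.07, and the 95% intervals of all 4 lay within 0.5 of 0. The summed level of the class was 1019 ± 49.9 CPM in the control and 715 ± 33.1 CPM in the RANKL libraries (SD, n = 4). Without Galnt6 and Galnt7, a split made after their values were seen, it was 556 ± 8.1 and 533 ± 21 CPM. Galnt6 and Galnt7 made up 42.2 to 49.7% of the class sum in the control libraries and 24.8 to 26.2% in the RANKL libraries. Galnt2 had 0 counts in all 8 libraries, but 90% of its exonic bases are shared with the read-through gene Gm20388, so its count says little of its level.

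The next step, addition of galactose to GalNAc, needs the core 1 synthase C1galt1 and its chaperone C1galt1c1. Neither passed the threshold. The log2 fold change of C1galt1 was -0.21, with a 95% interval of -0.62 to 0.21, and that of C1galt1c1 was 0.17, with an interval of -0.15 to 0.50.

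Of 3 tested branching enzymes, which add GlcNAc as a side branch, Gcnt2 rose and Gcnt3 fell. The shares over all tested genes were 13.6% higher and 12.4% lower. Gcnt2 encodes the I-branching enzyme of poly-lactosamine chains. Its level was 35, 41.9, 36.5 and 39.6 CPM in the control and 90.4, 87.4, 94.9 and 81.3 CPM in the RANKL libraries. The libraries of each group lay close together and the groups were far apart. Its log2 fold change was 1.23 ± 0.13 (SE, edgeR adjusted p = 7.8e-09).

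Gcnt3 encodes the mucin-type enzyme that makes core 2 and core 4 branches. It had 73.8, 74.3, 56 and 55 CPM in the control and 27.4, 35.1, 37.5 and 34.6 CPM in the RANKL libraries. All control libraries were above all RANKL libraries, and its log2 fold change was -0.95 ± 0.15 (SE, edgeR adjusted p = 1.3e-05). The ratio of Gcnt2 to Gcnt3 within a library, computed after both had been seen and given with no test, was 0.474 to 0.719 in the control and 2.35 to 3.29 in the RANKL libraries. Gcnt4, another core 2 enzyme, had 35.8 to 49.4 CPM in the control and 48.4 to 66.1 CPM in the RANKL libraries. Its log2 fold change of 0.38 ± 0.15 (SE) had an edgeR adjusted p of 0.052. Gcnt1, the core 2 enzyme of leukocytes, was not tested because of low counts.

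**Figure D2:**
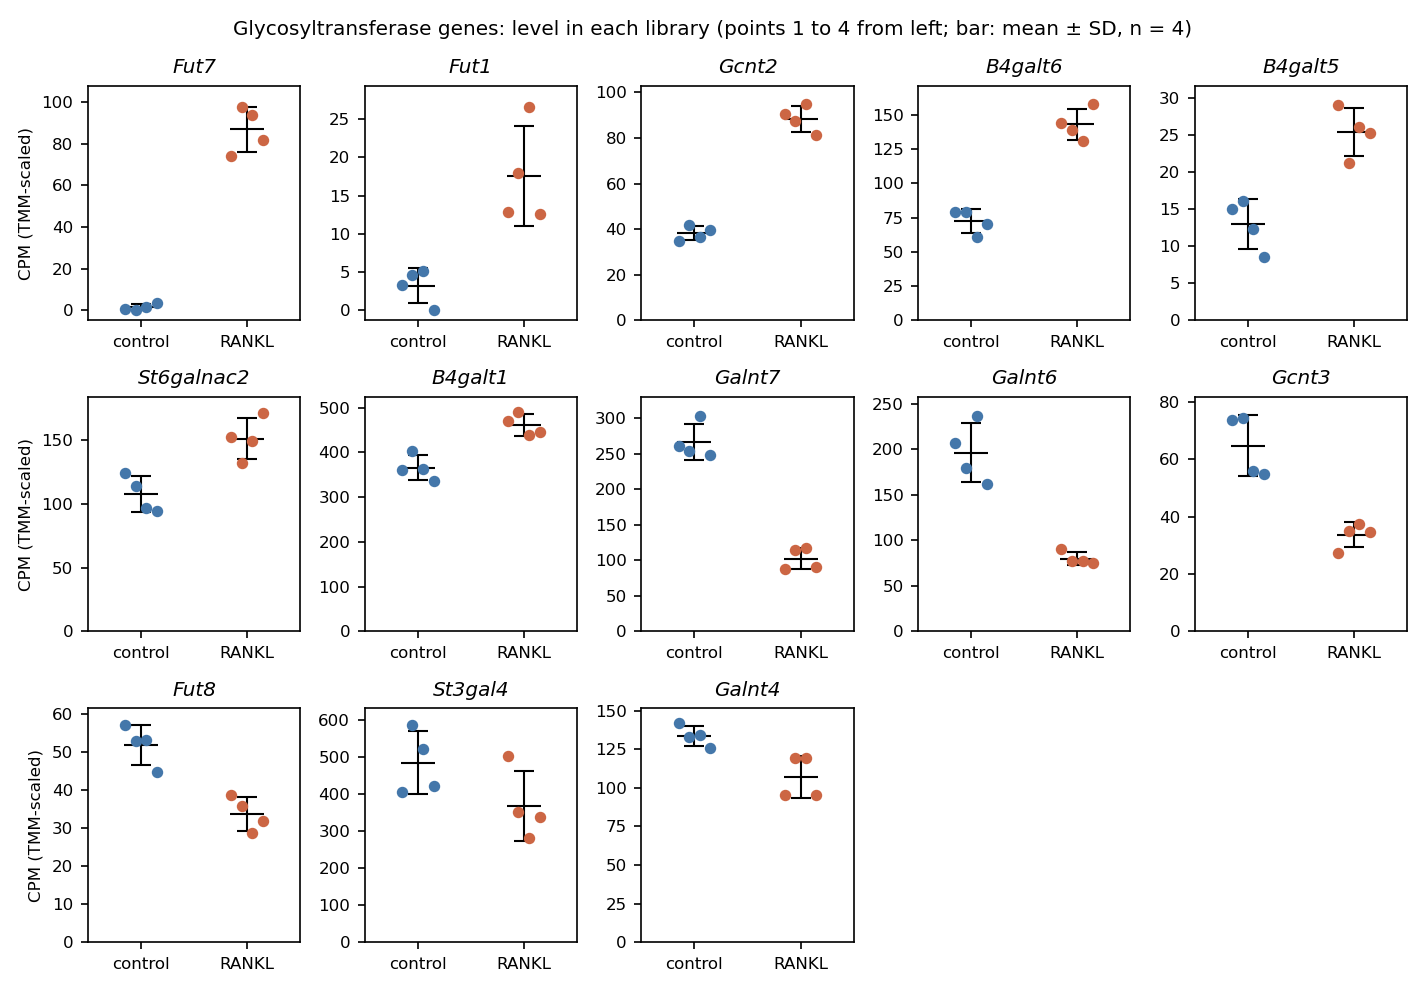
Level of Fut7 and of the 12 members past the threshold in each library, in TMM-scaled CPM (y axis, a separate scale for each gene), with control libraries in blue, RANKL libraries in orange and bars for the mean ± SD (n = 4). The groups are apart for every gene drawn except St3gal4, where RANKL replicate 1 at 504 CPM lies among the control libraries.

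Of the enzymes that extend chains with galactose, 3 of 5 tested beta1,4-galactosyltransferases rose and 0 fell. The shares over all tested genes were 13.6% higher and 12.4% lower. B4galt6 encodes a lactosylceramide synthase, which makes the base of many glycolipids. It had 79.4, 78.9, 60.8 and 70.5 CPM in the control and 144, 139, 131 and 158 CPM in the RANKL libraries. Each RANKL library was well above each control library, and the log2 fold change was 0.97 ± 0.12 (SE, edgeR adjusted p = 1.6e-07).

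B4galt5, which makes the same glycolipid, had 15, 16.1, 12.4 and 8.6 CPM in the control and 29.1, 21.3, 26.1 and 25.3 CPM in the RANKL libraries. The groups did not overlap, and the log2 fold change was 0.82 ± 0.20 (SE, edgeR adjusted p = 0.0022). B4galt1, the broadly acting enzyme that makes type 2 chains, had 361, 404, 363 and 335 CPM in the control and 469.8, 491, 438 and 445 CPM in the RANKL libraries. The groups were apart by a small margin, and the log2 fold change was 0.32 ± 0.09 (SE, edgeR adjusted p = 0.011). The call was lost without RANKL replicate 2 (adjusted p = 0.054 by edgeR) and with no filter on low counts (adjusted p = 0.061). B4galt3 and B4galt7 had log2 fold changes of 0.02 and -0.10 and did not pass. The summed level of the class was 607 ± 47.7 CPM in the control and 785 ± 21.9 CPM in the RANKL libraries (SD, n = 4), and B4galt1 made up 56.3 to 60.9% of it in every library.

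The other extension classes held no member past the threshold. B3gnt3, which extends core 1, had a log2 fold change of 0.20, and B3gnt7, an enzyme of keratan sulfate chains, one of -0.43 with a 95% interval of -0.85 to -0.01 and an edgeR adjusted p of 0.13. B3galt4, which makes ganglioside GM1, had a log2 fold change of -0.57 with an interval of -1.16 to 0.01, and B3galt6, an enzyme of the proteoglycan linker, one of -0.21. B4galnt1, the GM2 ganglioside synthase, had -0.00, B4galnt2, the enzyme of the Sda antigen, had -0.21, and B4galnt4 had -0.32 on the same scale. B3gnt2, the main poly-lactosamine enzyme, had 3 control counts and 1 RANKL count, but 65.5% of its exonic bases are shared with other genes on the same strand.

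**Figure D3:**
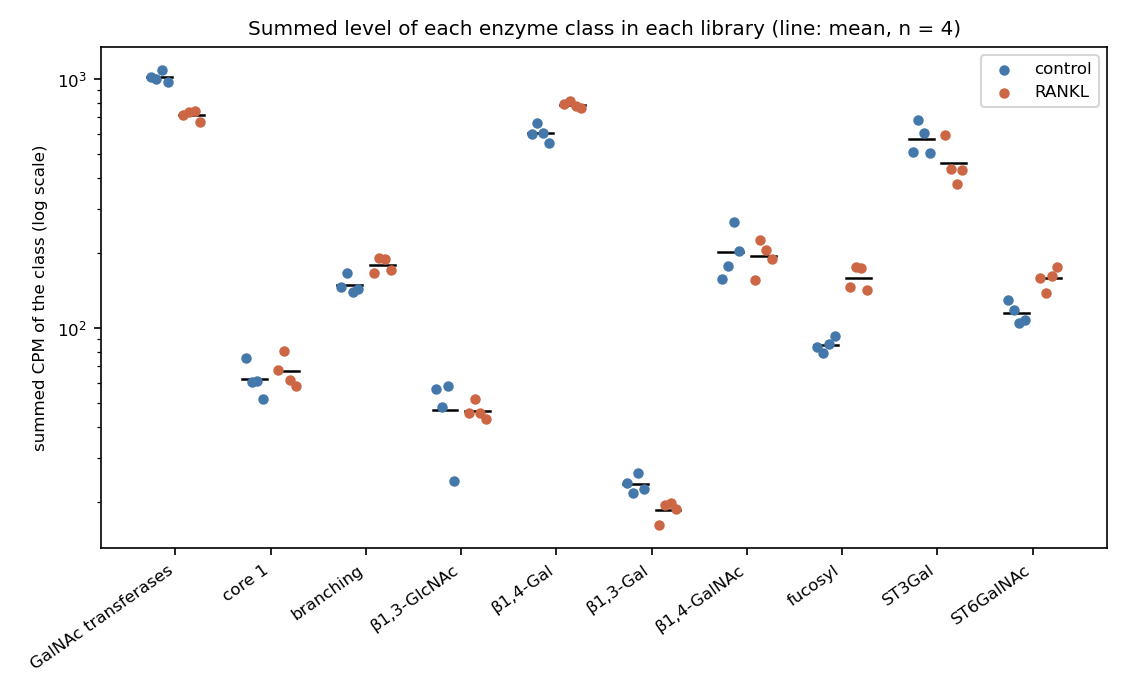
Summed TMM-scaled CPM of each enzyme class (y axis, log scale) in the 4 control libraries (blue) and 4 RANKL libraries (orange), with a line at the group mean. The GalNAc transferases go from a mean of 1019 to 715 CPM and the fucosyltransferases, Fut7 included, from 85.4 to 159 CPM (84 to 72.2 CPM without it), and the ST6Gal and ST8Sia classes, at most 1.72 CPM in any library, are not drawn.

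Beside Fut7, 3 fucosyltransferases were tested, of which 1 rose and 1 fell. The shares over all tested genes were 13.6% higher and 12.4% lower. Fut1 encodes the alpha1,2-fucosyltransferase of the H antigen and lies at chr7:45617289-45621059. It had 3.31, 4.56, 5.07 and 0 CPM in the control and 12.9, 17.9, 26.6 and 12.6 CPM in the RANKL libraries. All RANKL libraries were above all control libraries, and the 0 in control replicate 4 allows up to 5.16 CPM. The log2 fold change was 2.20 ± 0.31 (SE), from 63 control and 108 RANKL counts. Fut1 passed the filter only through the RANKL libraries, where it was high, so its call is read from the fit with no filter. There the log2 fold change was 2.15 ± 0.29 (SE, edgeR adjusted p = 7.7e-12), with a median of -0.11 over all genes. Adjusted p of that fit cannot be set beside those of the main fit. For Galnt6 edgeR gave 4.6e-10 in the main fit and 3.7e-26 with no filter, and for B4galt1 0.011 and 0.061.

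Fut8 encodes the alpha1,6-fucosyltransferase that puts core fucose on N-glycans. It had 57.2, 52.9, 53.2 and 44.7 CPM in the control and 38.7, 35.8, 28.7 and 31.9 CPM in the RANKL libraries. The groups did not overlap, and the log2 fold change was -0.70 ± 0.15 (SE, edgeR adjusted p = 5.9e-04). Fut11 had a log2 fold change of -0.28 and did not pass. The summed level of the class was 85.4 ± 5.65 CPM in the control and 159 ± 17.8 CPM in the RANKL libraries (SD, n = 4). Fut7 was 0 to 3.7% of this sum in the control and 51.1 to 57.5% in the RANKL libraries, and without it the sum was 84 ± 4.18 and 72.2 ± 8.61 CPM.

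Fut2, the secretor enzyme that makes the same linkage as Fut1 in the gut, was below the filter. It had 5.6, 2.42, 4.05 and 13.8 CPM in the control and 4.84, 2.06, 5.22 and 3.3 CPM in the RANKL libraries, from 77 and 22 counts. The groups overlapped, and with no filter its log2 fold change was -0.40 ± 0.42 (SE, edgeR adjusted p = 0.64). Fut4, an enzyme of Lewis x, had a log2 fold change of 0.98 ± 0.73 (SE) in that fit, with an edgeR adjusted p of 0.48, and Fut9 was at 0 in all 8 libraries.

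Of the sialyltransferases, 5 of 21 were tested. St6galnac2, which adds sialic acid to the GalNAc at the base of O-glycans, had 124, 114, 96.8 and 94.6 CPM in the control and 152, 132, 149 and 171 CPM in the RANKL libraries. The groups did not overlap, and the log2 fold change was 0.47 ± 0.12 (SE, edgeR adjusted p = 0.003).

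St3gal4, which puts alpha2,3-linked sialic acid on galactose and so supplies acceptors for Fut7, had 407, 587, 521 and 423 CPM in the control and 504, 352, 283 and 338 CPM in the RANKL libraries. The groups overlapped, since RANKL replicate 1 was above control replicates 1 and 4. Its log2 fold change was -0.43 ± 0.13 (SE, edgeR adjusted p = 0.015), but an exact two-sided permutation test on its CPM gave p = 0.143. The edgeR call was lost without control replicate 2 or without RANKL replicate 2, 3 or 4, with adjusted p of 0.055 to 0.1. St3gal4 made up 75 to 86.4% of the ST3Gal sum in every library, and without it the class summed to 89.9 ± 10.9 CPM in the control and 90 ± 5.15 CPM in the RANKL libraries (SD, n = 4).

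St3gal1, which caps core 1, had 4.71, 5.37, 4.05 and 3.44 CPM in the control and 8.07, 5.51, 7.3 and 10.4 CPM in the RANKL libraries. The groups did not overlap, yet its log2 fold change of 0.76 ± 0.31 (SE) had an edgeR adjusted p of 0.067. St3gal1 passed the filter only through the RANKL libraries, where it was higher. In the fit with no filter its log2 fold change was 0.72 ± 0.35 (SE, edgeR adjusted p = 0.22). St3gal2 and St3gal6 had log2 fold changes of -0.08 and -0.10 and did not pass. The groups did not overlap for the other 11 members past the edgeR threshold. That alone fixes the exact permutation p at 0.0286, the smallest that 4 against 4 libraries can give, so it adds nothing to their calls. St3gal1 had the same permutation p, and the groups did not overlap for 24.6% of all tested genes.

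The remaining 44 members were below the filter, and 14 of them had 0 counts in all 8 libraries. One was Galnt2, whose shared exons are described above. For the other 13 a count of 0 over the pooled libraries allows up to 0.185 CPM in the control and 0.521 CPM in the RANKL group. The 13 were Galnt9, Galnt13, Galnt14, Galnt16, Gcnt7, B3gnt4, B3galt1, Fut9, St6gal2, St6galnac1, St8sia1, St8sia5 and St8sia6. A further 12 had 1 to 10 counts in all, and 5 had over 50. St6galnac6, an enzyme of disialylated chains, had 1.15, 1.34, 1.01 and 1.72 CPM in the control and 4.84, 3.44, 7.82 and 2.2 CPM in the RANKL libraries. Its groups did not overlap, but the highest control value, that of replicate 4, comes from 1 count. In that library 3 counts would be 5.16 CPM, above RANKL replicates 1, 2 and 4. With no filter the log2 fold change of St6galnac6 was 1.87 ± 0.54 (SE, edgeR adjusted p = 0.0075), from 19 and 27 counts. B4galt4 had 5.37 to 7.51 CPM in the control and 4.13 to 5.22 CPM in the RANKL libraries, with a log2 fold change of -0.59 ± 0.37 (SE) and an edgeR adjusted p of 0.41 in the same fit.

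Genes that supply, modify or carry these glycans were read from 8 lists, and of 72 tested genes 14 rose and 11 fell, beside the 25.9% of all tested genes past the threshold. The 11 became 5 without RANKL replicate 4 and 7 at an adjusted p of 0.01. Of the 63 that passed the filter on either group alone, 12 rose and 11 fell. Over all tested genes 13.6% were higher and 12.4% lower. Donor supply genes past the threshold went in both directions. Of 7 tested genes for GDP-fucose, the donor of all fucosyltransferases, 1 rose, 2 fell and 4 did not pass. Gmppb had a log2 fold change of 0.88, while Gmds, the first enzyme from GDP-mannose to GDP-fucose, had -0.64 and Slc35c2 had -0.53. Gmppb makes GDP-mannose and shares exons with Gm20529. Of 4 tested genes of CMP-sialic acid, Nans, the sialic acid synthase, rose by 0.52 and 3 did not pass. Of 18 tested genes for UDP-sugars, 4 rose and 2 fell, with Uap1, which makes UDP-GlcNAc, at 1.38, Gfpt1, which feeds the hexosamine pathway, at 0.58, Amdhd2 at 0.54, and Galk1, the galactokinase, at -0.80.

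Among 8 tested genes of sulfation, Chst8, which sulfates terminal GalNAc, had 0.637, 0.268, 0 and 1.72 CPM in the control and 9.69, 6.88, 6.26 and 13.2 CPM in the RANKL libraries. It had 7 counts in the control libraries together and 52 in the RANKL libraries, through which alone it passed the filter. Its log2 fold change was 4.24 ± 0.50 (SE), and in the fit with no filter 4.19 ± 0.54 (SE, edgeR adjusted p = 5.2e-13). Papss2, which makes the sulfate donor, was at 0.82, and Papss1, which makes the same donor, at -0.40, while Gal3st2, a galactose 3-sulfotransferase, was at -0.59. Of 11 other glycosyltransferases 3 fell and 0 rose, beside 12.4% lower and 13.6% higher over all tested genes. Those that fell were Lfng and Pofut1, which modify Notch, at -0.74 and -0.59, and Ogt at -0.42. Ogt adds GlcNAc to nuclear and cytosolic proteins. Of 7 tested enzymes that remove sugars, Glb1, the lysosomal galactosidase, had a log2 fold change of -0.56, passed the threshold and shares exons with Tmppe.

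Of 9 tested mucins and mucin-like carriers, 5 rose and 0 fell, beside 13.6% higher and 12.4% lower over all tested genes. The log2 fold changes were 1.75 for Podxl, 1.61 for Cd44, 1.49 for Cd24a, 1.17 for Muc4 and 0.45 for Muc13, the last pair membrane mucins, and the other 4 tested genes did not pass. Podxl and Cd44 are proteins that can carry selectin ligands, and Podxl passed the filter only through the RANKL libraries. With no filter the log2 fold change of Podxl was 1.70 ± 0.28 (SE, edgeR adjusted p = 9.7e-08). Of 8 tested lectins, Lgals8 rose by 0.87 and Lgals2 had -0.62, both galectins that bind galactose.

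**Figure D4:**
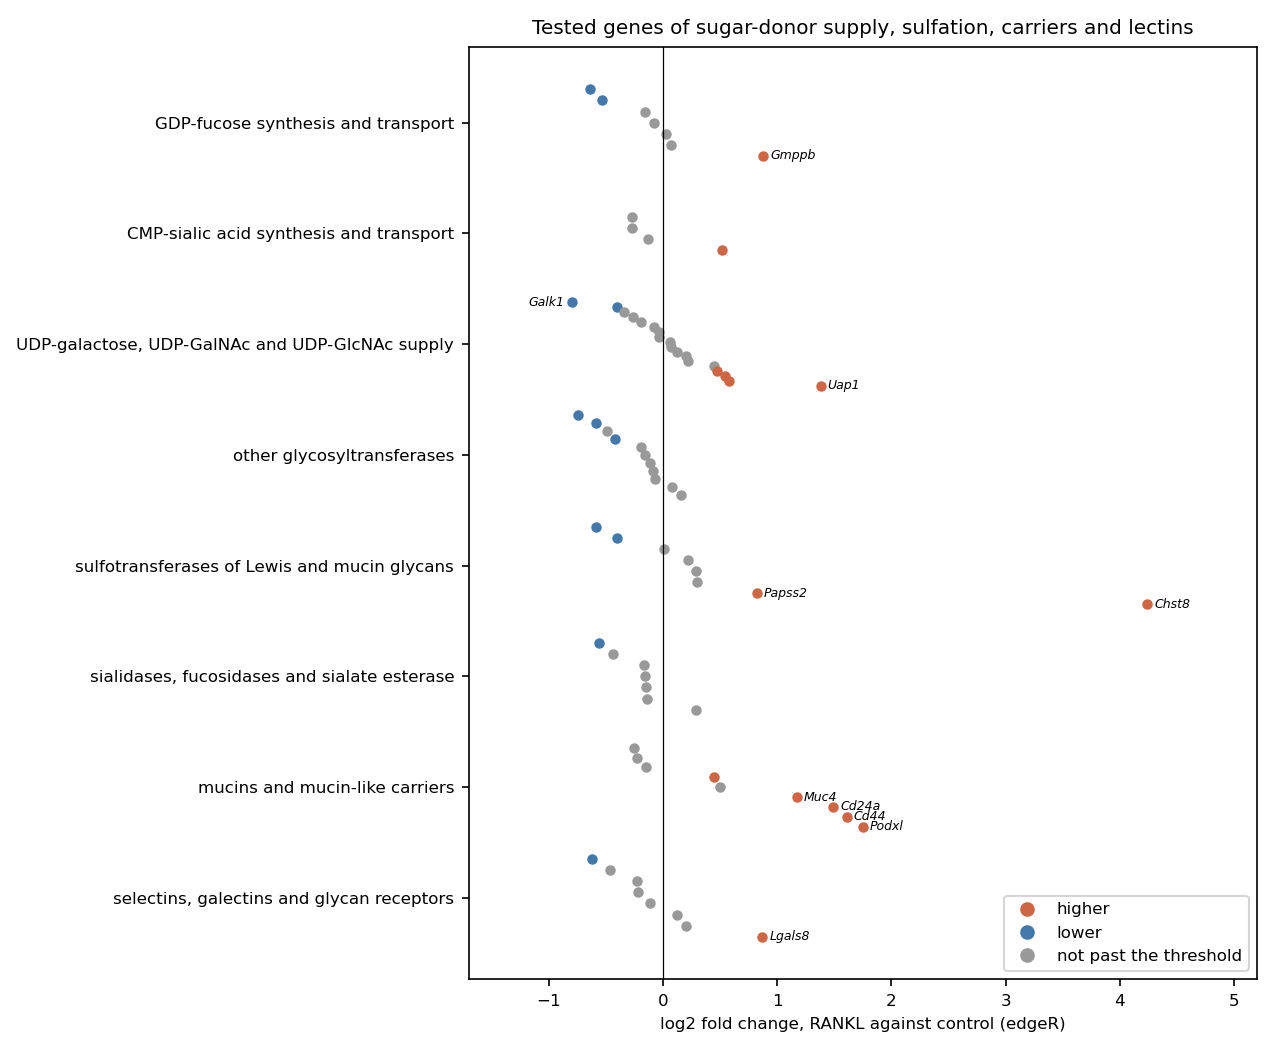
Log2 fold change of RANKL against control (x axis, edgeR) for the 72 tested genes of 8 lists around glycan synthesis, one point per gene, with the 14 that rose in orange, the 11 that fell in blue and the 47 not past the threshold in grey. Chst8 at 4.24 stands to the right of the other genes, and the mucin and carrier list holds 5 genes that rose. Chst8 and, in the carrier list, Podxl passed the filter only through the RANKL libraries.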

How the data were processed

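Bulk RNA of 4 control and 4 RANKL libraries was sequenced from the 3′ end (QuantSeq), grouped by the sample titles. The authors trimmed reads with BBDuk, removed abundant sequences with bowtie2, aligned with STAR to GRCm38 and counted strand-specifically with featureCounts on Ensembl genes. The deposited values are raw counts per gene with no normalization. Symbols and coordinates came from GENCODE on GRCm38. Counts of 3′ reads do not grow with gene length. The tests compared libraries within a gene. Class sums, shares of these sums and the ratio of Gcnt2 to Gcnt3 weight genes by their reads.

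Total counts of 583663 to 7807298 set the precision of each value. Counts were filtered with filterByExpr, scaled with TMM and tested with the edgeR 4.0.16 quasi-likelihood test in R 4.3.3, with no covariate and Benjamini-Hochberg adjustment over 9971 genes at 0.05. DESeq2 1.42.0 and limma-voom 3.58.1 were alternatives, beside other scalings, filters, a depth term, a replicate block and each library left out. The fits were tested on simulated data. Exact two-sided permutation tests compared CPM of single members. Values in every library are given for Fut7 and each member past the threshold, and for the pathway lists all genes past it are named if 4 or fewer, otherwise the 4 with the largest change. Values of other members given in every library, and of Chst8, Muc13 and single cell type markers such as Pdgfrb and Spib, were added after they had been seen. The members, lists, splits and motifs were chosen with earlier results of these data known. Promoters came from RefSeq on GRCm38.p6. The level of 1 leukocyte marker is not reported here.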

Additional observations from a re-analysis of the deposited data

Results flagged for a closer look

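Among 66 groups of 4 libraries, 1 held a library far from the other 3 by Dixon's test, where chance gives about 1 in 20. It was Galnt6 in RANKL replicate 1, at 90.4 CPM against 77.2 CPM in the next library, from 56 counts. The log2 fold change of Galnt6 kept its call when that library was left out.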

How the results depend on the processing

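None of the 12 members past the threshold changed direction under the alternatives that tested it. With at least 10 counts in every library, Fut1 and B4galt5 did not pass the filter and were not tested. The number of members that passed the filter was 33, against 63 with no filter and 19 with at least 10 counts in every library. Pathway genes that fell numbered 11, against 7 at an adjusted p of 0.01 and 5 to 12 when each library was left out, with the lowest number without RANKL replicate 4. Members that rose ranged from 5 to 7 and members that fell from 4 to 6 over the alternatives. Gcnt4 passed under 6 alternatives, and St6galnac6 passed with DESeq2 and with no filter. The replicate block gave 6 members that rose and 5 that fell, with Galnt4 lost, and it changed no other member's call. With log2 library total as a covariate the numbers were also 6 and 5, with Galnt4 alone lost. Over all genes, 1827 passed the threshold in that fit, against 2587 in the main fit. The deviations of same-numbered libraries from their group means had correlations of -0.00724, -0.0334, 0.101 and 0.035. Counting noise in shallow libraries can hide a shared deviation, and the labels give no pairing. Whether same-numbered libraries share a culture is therefore not known. Depth limits low members most, since 1 count is worth 1.72 CPM in control replicate 4.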
